A study of Homo sapiens with 8 samples.

Results

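The core autophagy genes were followed through 97 single guide RNAs (sgRNAs) aimed at 19 genes, out of 87897 targeting sgRNAs and 17547 genes tested in a genome-scale CRISPR interference growth screen. Members were chosen by gene symbol: every sgRNA of the primary promoter sets whose name carries one of 20 listed symbols and whose read count averaged at least 20 over the 8 libraries. The symbols are ULK1, ULK2, ATG13, RB1CC1, PIK3C3, PIK3R4, BECN1, ATG14, ATG3, ATG5, ATG7, ATG10, ATG12, ATG16L1, ATG2A, ATG2B, ATG9A, WIPI2, SQSTM1 and ATG101. ATG101 is not a symbol in the count table, where the gene appears under its older symbol C12orf44, so its values are given beside the members and not among them. Of 190 sgRNAs listed for the members, 93 had a count of 0 in all 8 libraries, none fell between 0 and the minimum, and 97 were kept. There were 5 kept sgRNAs for each of 18 members and 7 for ATG13.

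The cells were K562, a human leukaemia cell line, carrying dCas9-KRAB, a Cas9 without nuclease activity fused to a transcriptional repressor domain. An sgRNA brings the fusion to a promoter, and if repression of that gene slows growth, the sgRNA takes a smaller share of the reads from genomic DNA later on. All 4 groups shared dCas9-KRAB, the sgRNA library and puromycin selection of transduced cells. They were cells with wild-type uL16 at day 0, the same line at day 9, cells with mutant uL16 at day 0, and that line at day 9, with 2 replicates each. uL16 is a protein of the large ribosomal subunit. The sample titles call the mutant line delta. The labels state neither which mutation it carries nor whether a line is a single clone. Nothing states that replicates were separate cultures, so the p-values measure only the spread between these samples. The library totals ran from 39233340 to 143585751 reads, and the median read count of a member sgRNA ran from 319 to 1158 per library, with a lowest single count of 33. Member sgRNAs held 0.0795% to 0.0864% of the reads in each library. Reads of a PCR product without molecular identifiers are not independent molecules. Transcript levels were not measured here, so how far each gene was repressed is not known.

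Autophagy encloses cytoplasm in a double membrane that closes and fuses with lysosomes. The ULK1 kinase complex starts it, PI3K complex I, with the catalytic subunit encoded by PIK3C3, makes phosphatidylinositol 3-phosphate (PI3P) on the forming membrane, and ATG9A, ATG2A, ATG2B and WIPI2 move lipid and read that PI3P. A pair of ubiquitin-like reactions then joins ATG12 to ATG5 and ATG8 proteins to lipid, and receptors such as SQSTM1 bring in cargo. PIK3C3, PIK3R4 and BECN1 also form a second complex that makes PI3P on endosomes, with UVRAG in the place of ATG14.

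One gene of the 19, PIK3C3, lost sgRNAs during growth of the wild-type line, and the partner subunits it works with did not pass the test. The sgRNA sequences are in none of the files used here. The 250 bases before the start of PIK3C3 and of PIK3R4, its partner subunit with the opposite sign of change, are shown as promoter sequence. Whether any sgRNA counted here lies in these windows could not be read. They are from RefSeq, build GRCh38.p14, at chr18:41954984-41955233 on the plus strand and chr3:130746830-130747079 on the minus strand, each 5′ to 3′ toward the gene. Capitals mark runs of G or of C, the fixed letters of the motif NGG that Cas9 needs beside a target, on the printed or the opposite strand.
PIK3C3: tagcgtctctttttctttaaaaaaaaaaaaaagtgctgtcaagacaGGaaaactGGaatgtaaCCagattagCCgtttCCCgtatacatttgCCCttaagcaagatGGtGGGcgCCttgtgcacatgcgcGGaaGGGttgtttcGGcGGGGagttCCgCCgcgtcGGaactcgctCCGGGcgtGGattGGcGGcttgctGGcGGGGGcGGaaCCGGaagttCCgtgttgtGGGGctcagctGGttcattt
PIK3R4: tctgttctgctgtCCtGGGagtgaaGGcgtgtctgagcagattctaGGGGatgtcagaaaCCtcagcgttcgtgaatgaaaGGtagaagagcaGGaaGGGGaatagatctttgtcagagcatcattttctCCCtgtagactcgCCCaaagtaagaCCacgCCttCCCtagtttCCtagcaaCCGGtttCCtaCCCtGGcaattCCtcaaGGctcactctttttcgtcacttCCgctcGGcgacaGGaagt
Counting overlapping matches on both strands, NGG occurred 41 times in the PIK3C3 window, with a GC content of 53.6%, and 33 times in the PIK3R4 window, with 50.8%. RefSeq promoters were matched for 18 of 19 members (not RB1CC1). Their median was 54.5 NGG and 62.6% GC, from 26.4% for ATG5 to 78.0% for ULK1, against 48 NGG and 58.0% over 35116 promoters. NGG was present in 100% of the member windows, with 8 to 90 matches, and in 100% of all windows after rounding, with 0 to 134 matches. The numbers in the sgRNA names did not match this build, so they serve below as names and for distances between sgRNAs of a gene.

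Counts were compared with edgeR's quasi-likelihood test, in 1 fit over all genes or all sgRNAs. Gene values rest on summed sgRNA counts, so abundant sgRNAs weigh more. The log2 change is day 9 minus day 0, its standard error is SE, and a change counts as called where the p-value, adjusted over everything tested by the Benjamini-Hochberg method, is under 0.05. Levels are given as CPM, read counts scaled to a common library total. At day 0, before the growth period, the log2 difference of mutant minus wild-type ran from -0.07 for ATG2A to 0.20 for RB1CC1, whose unadjusted p in edgeR was 0.0796. No member of 19 was called at day 0, against 0.0% of all genes, and DESeq2 also called 0. None had an unadjusted edgeR p under 0.05, against 0.627% of all genes lower and 0.752% higher.

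Among the subunits of PI3K complex I, PIK3C3 fell in the wild-type line. Its sgRNAs summed to 72.6 and 71.5 CPM in the wild-type replicates at day 0 and to 49.5 and 45.8 CPM at day 9. Both day 9 values were below both day 0 values. The mean went from 72.0 ± 0.778 (SD, n = 2) to 47.7 ± 2.62 CPM (SD, n = 2), or 66.2% of day 0. The log2 change was -0.60 (SE 0.10, 95% interval -0.80 to -0.39, edgeR adjusted p = 2.86e-05), and all 5 sgRNAs had a negative change.

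In the cells with mutant uL16, PIK3C3 stood at 66.5 and 75.2 CPM at day 0 and at 54.5 and 60.8 CPM at day 9. The groups again did not overlap, and the mean at day 9, 57.6 ± 4.45 CPM (SD, n = 2), was 81.4% of that at day 0, 70.9 ± 6.15 (SD, n = 2). The log2 change of -0.30 (SE 0.10, interval -0.50 to -0.09) did not pass the threshold, with an edgeR adjusted p of 0.0545, and 3 of 5 sgRNAs were lower. It was past the threshold with DESeq2 (-0.29, adjusted p = 0.0102), with limma on the mean log2 CPM of the sgRNAs (-0.44, adjusted p = 0.0308), and in 10 of 25 alternatives in all. Leaving out wild-type day 9 replicate 1 (adjusted p = 0.0285), wild-type day 9 replicate 2 (0.028) or mutant day 9 replicate 2 (0.0409) each gave the call. The loss was 0.30 log2 units smaller in the mutant than in the wild-type line (interval 0.01 to 0.59, unadjusted p = 0.043). After adjustment over all genes the edgeR p was 0.874, so a difference between the lines was not established, and 0 of 24 alternatives called it.

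The PIK3C3 sgRNAs called lower lie close together, as do most sgRNAs of the gene, and others in the same stretch were not called. The plus-strand sgRNA 39535215 had 650 and 446 reads in wild-type day 0, 97 and 102 in wild-type day 9, 535 and 1181 in mutant day 0, and 146 and 386 in mutant day 9. In CPM that was 10.8 and 8.36 against 2.51 and 2.52 in the wild-type line, and 8.60 and 10.0 against 4.56 and 4.60 in the mutant. It fell in both lines, to 26.3% of day 0 in wild-type cells (log2 change -1.93, SE 0.31, edgeR adjusted p = 6.47e-05) and to 49.1% in mutant cells (-1.03, SE 0.30, adjusted p = 0.0323). The mutant call, unlike the wild-type one, was lost in 6 of the 15 alternatives: without either wild-type day 0 library (adjusted p = 0.0726 and 0.0601), either mutant day 0 library (0.137 and 0.422) or either mutant day 9 library (0.11 and 0.116).

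The minus-strand sgRNA 39535233 lies 18 bases further on. It had 635 and 543 reads in wild-type day 0, 110 and 264 in wild-type day 9, 747 and 1447 in mutant day 0, and 230 and 440 in mutant day 9. It fell in the wild-type line, to 45.3% of day 0 (log2 change -1.14, SE 0.31, edgeR adjusted p = 0.0201), a call not made without wild-type day 0 replicate 1 (0.152), wild-type day 0 replicate 2 (0.118) or wild-type day 9 replicate 1 (-0.67, 0.224), nor in a fit of the wild-type libraries alone (0.0519). Its mutant level was 50.8% of day 0 (-0.98, SE 0.31, adjusted p = 0.0578), not past the threshold, though it was called in 5 of 15 alternatives: with control scaling (0.0364), with DESeq2 (0.019), with only the libraries compared (0.0189) and without either wild-type day 9 library (0.0065 and 0.00811).

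The other sgRNAs of PIK3C3 were not called by edgeR. Plus-strand sgRNA 39535224, 9 bases from the lowest position, changed by -0.39 in the wild-type line (733 and 615 reads, then 344 and 374) and by -0.57 in the mutant (762 and 1393 reads, then 250 and 702). DESeq2 called the mutant change of 39535224 (-0.57, adjusted p = 0.0285), the single call among 15 alternatives. Plus-strand sgRNA 39535239, 24 bases from the lowest, changed by -0.52 in the wild-type line (617 and 640 reads, then 288 and 325) and by 0.36 in the mutant (395 and 1139 reads, then 288 and 966). For the difference between lines it gave 0.88 (edgeR unadjusted p = 0.0253) and 39535215 gave 0.90 (0.0415). Both had an adjusted p of 0.96 in edgeR.

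Plus-strand sgRNA 39535554 lies 339 bases from the lowest and was the most abundant of the 5. It had 1714 and 1552 reads in wild-type day 0, 1088 and 806 in wild-type day 9, 1665 and 3611 in mutant day 0, and 843 and 2631 in mutant day 9. The change was -0.26 (SE 0.16) in the wild-type and 0.01 (SE 0.16) in the mutant line. Leaving it out moved the gene's log2 change to -0.86 in wild-type cells (edgeR adjusted p = 8.53e-06) and to -0.53 in mutant cells, where the call was then made (adjusted p = 0.0046). Leaving out 39535239 gave a mutant change of -0.40 (adjusted p = 0.00774). In the wild-type line the gene was called whichever of its 5 sgRNAs was left out, with log2 changes from -0.86 to -0.47.

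PIK3R4, the regulatory subunit that anchors the PIK3C3 kinase, was not called in either line. It had 54.7 and 55.1 CPM in wild-type day 0 and 63.3 and 61.1 CPM in wild-type day 9. The mutant values were 57.3 and 56.5 CPM, then 61.3 and 62.9 CPM. Day 9 was the higher time in both lines with no overlap, by 0.18 log2 units (interval -0.02 to 0.38) and 0.13 (-0.07 to 0.33), with edgeR adjusted p of 0.317 and 0.568. Lack of overlap between 2 and 2 libraries was also seen in other uncalled members. These were ATG12, ATG13, ATG16L1, ATG2A and ULK1 in wild-type cells and ATG7, SQSTM1, ULK2 and WIPI2 in mutant cells. The share of all genes without overlap is not given here, so lack of overlap only describes the values of a gene. The intervals of PIK3R4 exclude a loss of the size seen for PIK3C3.

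BECN1, the scaffold subunit that BCL2 binds, had the lowest value among the members after PIK3C3 in wild-type cells. It had 41.9 and 39.9 CPM in wild-type day 0 and 40.4 and 32.4 CPM in wild-type day 9, and 41.7 and 40.8 CPM, then 41.0 and 35.6 CPM, in the mutant. The time points overlapped in both lines, and the log2 changes were -0.17 (interval -0.43 to 0.09) and -0.11 (-0.37 to 0.15). Single libraries moved them. Leaving out replicate 1 or 2 of wild-type day 9 gave -0.34 or -0.02 for the wild-type line, and leaving out the same replicates of mutant day 9 gave -0.21 or -0.01 for the mutant, none of them called by edgeR. Plus-strand sgRNA 40975887 of BECN1 stood apart from the other 4, with 300 and 353 reads in wild-type day 0 against 122 and 61 in wild-type day 9, and 342 and 430 against 106 and 132 in the mutant. Its changes of -1.31 (SE 0.46, edgeR adjusted p = 0.103) and -0.93 (SE 0.45, 0.40) were not called by edgeR. The wild-type change was called with DESeq2 (0.0353), with the replicate block (0.0474) and without wild-type day 9 replicate 1 (-1.94, 0.0257). ATG14, the subunit that directs complex I to autophagy, gave 55.3 and 53.6 CPM, then 54.2 and 49.3 CPM, in the wild-type line and 50.7 and 54.7 CPM, then 55.9 and 50.1 CPM, in the mutant. Its changes were -0.07 (interval -0.29 to 0.14) and 0.00 (-0.21 to 0.22), with overlapping time points.

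No gene of the ULK1 kinase complex was called in either line. ULK1 and ULK2 are the alternative kinases, and ATG13 and RB1CC1 (FIP200) are scaffold subunits. In the wild-type line the 4 log2 changes ran from -0.07 (ULK2) to 0.14 (ULK1), with intervals between -0.33 and 0.38. The mutant changes ran from -0.01 (RB1CC1) to 0.13 (ULK2), with intervals between -0.24 and 0.39. ULK2 had the largest positive difference between lines of the members after PIK3C3, 0.20 (interval -0.16 to 0.57, edgeR adjusted p = 0.938). It read 38.6 and 33.8 CPM, then 34.8 and 34.0 CPM, in the wild-type line and 36.3 and 35.0 CPM, then 39.7 and 38.5 CPM, in the mutant. C12orf44, the table's name for ATG101, which stabilises ATG13, changed by 0.02 (SE 0.09) in the wild-type and 0.05 (SE 0.09) in the mutant line. Counting it as a member altered no count of calls.

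Of the 7 ATG13 sgRNAs, 4 are also listed under HARBI1, which starts within 1000 bases on the opposite strand, with identical counts in all 8 libraries. ATG13 changed by 0.11 (SE 0.10) and 0.05 (SE 0.10), and HARBI1 by 0.12 and -0.07, none of them called. RB1CC1 had a second promoter set of 5 sgRNAs, which are not members. In a separate fit over 1395 genes with such sets it changed by 0.10 (edgeR adjusted p = 0.751) in the wild-type and 0.01 (0.99) in the mutant line.

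The conjugation genes gave no gene-level call. ATG7 is the activating enzyme of both reactions, ATG3 and ATG10 are the conjugating enzymes for ATG8 proteins and for ATG12, and ATG12, ATG5 and ATG16L1 form the complex that directs lipidation. Their log2 changes ran from -0.05 (ATG3) to 0.21 (ATG5) in the wild-type line and from -0.10 (ATG10) to 0.10 (ATG5) in the mutant, with intervals between -0.33 and 0.45. ATG5 had 54.6 and 52.9 CPM in wild-type day 0 and 70.0 and 54.1 CPM in wild-type day 9. The gain of 0.21 (SE 0.11, edgeR adjusted p = 0.303) thus came mainly from day 9 replicate 1, and without wild-type day 9 replicate 2 it was 0.38 with an adjusted p of 0.0235. ATG5 in the mutant read 58.9 and 54.7 CPM, then 64.2 and 58.0 CPM. ATG16L1 moved by a like amount, from 42.0 and 42.1 CPM to 47.1 and 50.0 CPM in the wild-type line (0.21, SE 0.12, adjusted p = 0.351) and from 42.9 and 38.7 CPM to 47.5 and 39.6 CPM in the mutant (0.09, SE 0.12). ATG12 and ATG10 changed by 0.07 and 0.04 in the wild-type and by 0.07 and -0.10 in the mutant line, each with an interval spanning 0.

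ATG7 held the single member sgRNA called higher by edgeR, in the mutant line. Minus-strand sgRNA 11314116 had 646 and 446 reads in wild-type day 0, 271 and 454 in wild-type day 9, 598 and 1215 in mutant day 0, and 515 and 1609 in mutant day 9. In CPM the mutant line went from 9.62 and 10.3 to 16.1 and 19.2, while the wild-type line read 10.7 and 8.36, then 7.00 and 11.2. The mutant change was 0.82 (SE 0.24, edgeR adjusted p = 0.0371) and the wild-type change -0.07 (SE 0.25). The difference between lines was 0.89 (interval 0.18 to 1.59, unadjusted p = 0.0155) and was not called (adjusted p = 0.96). The mutant call was made in 8 of 15 alternatives. It was lost with scaling to control sgRNAs (adjusted p = 0.057) and without either wild-type day 0 library (0.06 and 0.0559), either mutant day 0 library (0.371 and 0.215) or either mutant day 9 library (0.0541 and 0.258).

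The other 4 sgRNAs of ATG7 did not share that gain. Minus-strand sgRNA 11314095, 21 bases before it, had 867 and 572 reads, then 391 and 288, in the wild-type line and 765 and 1215, then 382 and 627, in the mutant. Minus-strand sgRNA 11314130 had 814 and 606 reads, then 391 and 544, in the wild-type line and 637 and 1376, then 273 and 636, in the mutant. Their mutant changes were -0.23 and -0.45, opposite in sign to that of 11314116. Minus-strand sgRNA 11314148 had 501 and 406 reads, then 374 and 340, in the wild-type line and 620 and 1091, then 290 and 915, in the mutant. Plus-strand sgRNA 11314294 had 385 and 386 reads, then 358 and 498, in the wild-type line and 446 and 867, then 341 and 452, in the mutant. These changed by 0.06 and 0.13 in the mutant line, and summed over its 5 sgRNAs ATG7 changed there by 0.10 (SE 0.11, edgeR adjusted p = 0.756). In the wild-type line 11314095, 11314130, 11314148 and 11314294 changed by -0.54, -0.08, 0.18 and 0.66, none of them called by edgeR.

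ATG3 starts within 1000 bases of SLC35A5 on the opposite strand, and the sgRNAs of both genes were counted. ATG3 read 59.1 and 54.3 CPM, then 48.3 and 60.9 CPM, in the wild-type line and 54.7 and 57.1 CPM, then 60.8 and 45.7 CPM, in the mutant, with changes of -0.05 (SE 0.12) and -0.08 (SE 0.12). SLC35A5 fell by 0.61 log2 units in the wild-type line (SE 0.15, edgeR adjusted p = 0.00457) and stood at -0.35 in the mutant (0.18). The lowest ATG3 sgRNA, minus-strand 112280669, changed by -0.43 in the wild-type and -0.73 in the mutant line (edgeR adjusted p = 0.456 and 0.0808). The mutant change was called with control scaling (0.047), with DESeq2 (0.00821), and without wild-type day 9 replicate 1 (0.0384) or replicate 2 (0.0417).

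ATG9A, the lipid scramblase of the autophagosome precursor, the lipid transfer proteins ATG2A and ATG2B, and the PI3P reader WIPI2 were not called in either line. In wild-type cells they ran from -0.12 (ATG2A) to 0.10 (ATG2B), and in mutant cells from -0.02 (ATG9A) to 0.11 (WIPI2), with all intervals between -0.32 and 0.33. ATG2A read 66.0 and 71.9 CPM, then 64.3 and 62.2 CPM, in the wild-type line, with both day 9 values the lower. The mutant values were 63.1 and 68.3 CPM, then 62.6 and 70.4 CPM, with overlapping time points. WIPI2 read 68.9 and 63.7 CPM, then 77.7 and 63.9 CPM, in the wild-type line and 64.6 and 64.4 CPM, then 74.0 and 65.7 CPM, in the mutant. Its sgRNAs were split in wild-type cells: minus-strand 5229901 changed by -0.64 and minus-strand 5229932 by 0.34, neither called (edgeR adjusted p = 0.298 and 0.288).

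SQSTM1 (p62), the receptor that links ubiquitinated cargo to ATG8 proteins, read 52.7 and 48.7 CPM, then 55.8 and 49.3 CPM, in the wild-type line. In the mutant it read 58.1 and 54.3 CPM, then 50.4 and 51.6 CPM. The mutant time points did not overlap, and SQSTM1 had the lowest mutant change among the 18 members other than PIK3C3, -0.14 (interval -0.36 to 0.08, edgeR adjusted p = 0.568), against 0.05 (SE 0.11) in wild-type cells. The difference between lines, -0.19 (interval -0.50 to 0.11), was the most negative of the 19 and was not called (adjusted p = 0.93). The 6 sgRNAs of its second promoter set, all also listed under MGAT4B, changed by -0.12 (0.647) and 0.01 (0.984).

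In counts, 1 of 19 member genes (5.26%) fell in the wild-type line, against 9.28% of all genes, and 0 rose, against 0.986%. In the mutant line edgeR called 0 of 19 lower, against 9.07%, and 0 higher, against 0.798%. PIK3C3 was the 1 member with an unadjusted edgeR p under 0.05 in each line. Of all genes, 13.6% were lower and 6.63% higher at that level in wild-type cells, and 13.0% and 5.04% in mutant cells. DESeq2 and limma each called 1 member in each line, PIK3C3. The shares given over all genes are from edgeR and do not serve for the DESeq2 and limma counts. With a library left out, the wild-type count was 2 without wild-type day 9 replicate 2 (ATG5 added), and the mutant count was 1 (PIK3C3) without either wild-type day 9 library or mutant day 9 replicate 2. For the difference between lines 0 of 19 were called, against 0.0171% of all genes (3 genes). Of the members, 1 was higher at an unadjusted p under 0.05 in edgeR, against 2.75% of all genes, and 0 were lower, against 2.93%. DESeq2 and limma called 0. The median log2 change of the 19 was 0.05 in both lines, against 0.01 over all genes. Without PIK3C3 the 18 others lay between -0.17 and 0.21 in wild-type cells and between -0.14 and 0.13 in mutant cells. Their 95% intervals reached from -0.43 to 0.45 and from -0.37 to 0.39, so a loss as large as that of PIK3C3 in wild-type cells lay outside the interval of each.

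At the level of single sgRNAs, 2 of 97 (2.06%) fell in the wild-type line, against 5.92% of all sgRNAs, and edgeR called 0 higher, against 0.348%. DESeq2 called 3 lower, with 40975887 of BECN1 added, and 0 higher. In the mutant line 1 fell, against 5.77%, and 1 rose, against 0.23%. DESeq2 called 5 there, 4 lower (39535215, 39535224 and 39535233 of PIK3C3 and 112280669 of ATG3) and 1 higher (11314116 of ATG7). The shares given over all sgRNAs are from edgeR and do not serve for the DESeq2 counts. Unadjusted edgeR p-values under 0.05 numbered 5 lower and 4 higher in wild-type and 6 lower and 3 higher in mutant cells. Over all sgRNAs the shares were 9.88% lower and 4.51% higher in wild-type and 9.17% and 3.33% in mutant cells. The wild-type count was 1 without either wild-type day 0 library, and without wild-type day 9 replicate 1 it was 2 with 40975887 of BECN1 in the place of 39535233 of PIK3C3. The mutant total of 2 was 0 without any one of the day 0 libraries or the mutant day 9 libraries, and 4 without either wild-type day 9 library. The difference between lines gave 0 calls of 97, against 0.0% of all sgRNAs, and 0 calls by DESeq2. There 2 were lower and 4 higher at an unadjusted edgeR p under 0.05, against 2.59% and 2.56% of all sgRNAs.

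Non-targeting sgRNAs gave the background of the assay. On mean log2 CPM with a prior count of 2, the central 95% of 1894 control sgRNAs lay from -0.79 to 0.62 in the wild-type and from -0.69 to 0.61 in the mutant line. In the wild-type line 3 member sgRNAs (3.09%) lay below that range, a pair of PIK3C3 sgRNAs and 40975887 of BECN1, and 4 (4.12%) above it, against 8.53% and 2.52% of all targeting sgRNAs. In the mutant line 4 (4.12%) lay below, the same 3 sgRNAs and 112280669 of ATG3, and 1 (1.03%) above, 11314116 of ATG7, against 9.09% and 1.84%. The SD of the changes in the wild-type and mutant lines was 0.423 and 0.324 over the 97 member sgRNAs, and 0.371 and 0.353 over the controls. Over the 92 member sgRNAs without PIK3C3, left out after its result was seen, it was 0.351 and 0.29. The changes in the lines had a Pearson correlation of 0.347 (Spearman 0.0789) across the 97 sgRNAs and of 0.147 (0.0141) across the 92. Over controls it was 0.197 (0.0671) and over all targeting sgRNAs 0.779 (0.296). These are descriptions over sgRNAs that share the same 8 libraries.

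Of 78 other genes of the pathway and of the endosomes and lysosomes around it, 8 fell and 3 rose in the wild-type line and 7 fell and 0 rose in the mutant, against the 9.28%, 0.986%, 9.07% and 0.798% of all genes. In the difference between lines edgeR, DESeq2 and limma each called 0 of the 78. There 3, with both directions counted together, had an unadjusted p under 0.05 in edgeR. Of all genes 2.93% were lower at that level and a further 2.75% higher. The wild-type total of 11 calls was 6 without wild-type day 0 replicate 1 or without wild-type day 0 replicate 2, and the mutant total of 7 was 4 without mutant day 0 replicate 2. Among 11 ATG8 and ATG4 genes, MAP1LC3B (LC3B) alone was called by edgeR, in wild-type cells (-0.39, SE 0.13, edgeR adjusted p = 0.0419), and DESeq2 did not call it (0.359). Its call was also lost without wild-type day 0 replicate 1 (0.28), day 0 replicate 2 (0.156) or day 9 replicate 2 (0.215). In the mutant MAP1LC3B read 81.9 and 82.9 CPM, then 80.7 and 48.9 CPM, a change of -0.36 (SE 0.13, adjusted p = 0.0699). That change was past the threshold in 7 of 20 alternatives, among them control scaling (0.038), limma (-0.83, 0.0139), the fit without the most abundant sgRNA (-0.58, 0.00163), without mutant day 9 replicate 1 (-0.75, 6.55e-06) and without either wild-type day 9 library (0.0485 and 0.048). It was -0.03 without mutant day 9 replicate 2. The sgRNAs of MAP1LC3B were uneven, with 3 of 5 lower in wild-type and 2 of 5 in mutant cells. The SDs between them were 1.37 and 1.83. Of 14 other phagophore and PI3K complex genes, AMBRA1, a regulator of BECN1, fell in the mutant line from 45.3 and 52.5 CPM to 35.1 and 37.3 CPM (-0.43, SE 0.12, adjusted p = 0.0112), a call lost without mutant day 0 replicate 2 (0.346) or mutant day 9 replicate 1 (0.0881). AMBRA1 stood at -0.20 in wild-type cells (0.371).

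Among 14 selective autophagy receptors, NUFIP1 and OPTN fell in both lines. NUFIP1, which has been described as a receptor for ribosomes and also has a role in snoRNP assembly, went from 72.3 and 76.5 CPM to 44.7 and 47.5 CPM in wild-type cells (-0.69, SE 0.10, edgeR adjusted p = 1.58e-06). In the mutant line it went from 83.2 and 79.1 CPM to 44 and 41.0 CPM (-0.93, SE 0.10, adjusted p = 2.99e-09), and it was called in each of 20 alternatives in both lines. Its sgRNAs were uneven, with 3 of 5 lower in wild-type and 4 of 5 in mutant cells and SDs between them of 1.67 and 1.93. OPTN, a mitophagy receptor, changed by -0.42 (SE 0.13, adjusted p = 0.033) and -0.57 (SE 0.13, 0.00227), with 2 and 3 of 5 sgRNAs lower. The OPTN calls were lost without wild-type day 0 replicate 1 (0.265), wild-type day 0 replicate 2 (0.113) or wild-type day 9 replicate 2 (-0.23, 0.367) for the first and without mutant day 0 replicate 2 (0.176) for the second. BNIP3, a mitophagy receptor named here after its value was seen, rose in the wild-type line (0.33, SE 0.11, adjusted p = 0.0442) and stood at -0.07 in the mutant (0.824). That call was made in 11 of 20 alternatives. It was lost without wild-type day 0 replicate 1 (0.161), day 0 replicate 2 (0.288), day 9 replicate 2 (0.24, 0.239), mutant day 0 replicate 1 (0.0699) or replicate 2 (0.0718). It was also lost with control scaling (0.083), limma (0.228), only the libraries compared (0.0522) and without the most abundant sgRNA (0.116).

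Of 13 fusion genes, VPS16, a shared subunit of the HOPS and CORVET tethers, fell in both lines, by 0.54 (SE 0.09, edgeR adjusted p = 3.37e-05) and by 0.37 log2 units (SE 0.09, 0.00361). The mutant call was lost without mutant day 0 replicate 1 (0.0653) or replicate 2 (0.0527) and with limma (0.052). The HOPS subunit VPS41 fell in wild-type cells (-0.35, SE 0.09, adjusted p = 0.00494), a call lost without wild-type day 0 replicate 2 (0.0917) and with all promoter sets pooled (-0.17, 0.164), and stood at -0.21 in mutant cells (0.17).

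Among 16 genes of endosomal sorting, HGS, VPS29 and VPS35, the last named here after its value was seen, fell in both lines. VPS35, a retromer subunit, changed by -1.06 (SE 0.18, edgeR adjusted p = 3.86e-05) and -1.33 (SE 0.18, 6.11e-07), and its wild-type call was lost without the most abundant sgRNA (-0.51, 0.182). Some VPS35 sgRNAs are also listed under another gene. Without such sgRNAs VPS35 changed by -1.42 and -2.12, and whether a neighbouring gene was also repressed was not tested. FIG4, a phosphoinositide phosphatase also named after its value was seen, rose in the wild-type line (0.38, SE 0.10, adjusted p = 0.00866) and stood at 0.11 in the mutant (0.668). The FIG4 call was lost without wild-type day 0 replicate 1 (0.28, 0.257), without the most abundant sgRNA (0.0737) and with limma (0.0613). VPS29, a retromer subunit, went from 63.7 and 56.7 CPM to 15.4 and 16.3 CPM in the wild-type line (-1.93, SE 0.15, edgeR adjusted p = 1.76e-12). In the mutant it went from 63.1 and 59.0 CPM to 15.3 and 10.3 CPM (-2.27, SE 0.15, adjusted p = 4.19e-14), with all 6 sgRNAs lower in both lines. RAD9B, which starts within 1000 bases of VPS29 on the opposite strand, also fell (-1.38 and -1.30), and repression of these neighbours cannot be told apart. HGS, an ESCRT protein that binds PI3P through its FYVE domain, went from 64.2 and 71.3 CPM to 35.0 and 31.4 CPM in wild-type cells (-1.03, SE 0.12, adjusted p = 5.69e-08). In mutant cells it went from 70.7 and 69.3 CPM to 48.9 and 34.3 CPM (-0.76, SE 0.12, adjusted p = 1.24e-05). All 5 HGS sgRNAs were lower in wild-type and 4 of 5 in mutant cells, with SDs between them of 0.9 and 1.81. The 10 lysosomal genes and TFEB relatives had a median log2 change of 0.05 in wild-type and 0.08 in mutant cells, against 0.01 over all genes in both.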

How the data were processed

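Genomic DNA from 8 libraries (4 groups, 2 replicates each) was sequenced for sgRNAs. The authors deposited raw read counts per sgRNA. Per the file headers, bases 1 to 39 of each read were matched, forward only, to the human CRISPRi version 2 library. The aligner and counter are not given in the sources used here, and the submitters' processing notes name hg38, which the numbers in the sgRNA names do not match.

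Groups and replicate numbers came from the labels. The members and the gene lists were chosen with earlier results of these data known. sgRNAs of sets P1 and P1P2 with a mean count of at least 20 were kept, and counts were summed per gene for genes with at least 3. edgeR 4.0.16 (R 4.3.3) fitted 1 mean per group to all 8 libraries with TMM scaling, which leaves 4 residual degrees of freedom. The contrasts were day 9 minus day 0 per line, their difference, and the lines at day 0. Adjusted p-values and 95% intervals are from that model. Its test also draws on the spread pooled over all genes or all sgRNAs fitted. The intervals thus rest on more than the 4 residual degrees of freedom. Alternatives used DESeq2 1.42.0, limma 3.58.1, other scalings, filters and sgRNA sets, a replicate block, and leaving out each library. Some were added after the data were seen: sets named by transcript, sgRNAs listed under 2 genes left out, C12orf44 as a member, PIK3C3 without each sgRNA, the pathway-list counts, and the second promoters. Values under the alternatives were also added for BNIP3, FIG4, VPS35 and 3 uncalled member sgRNAs. The procedure was tested on simulated data. All 20 listed genes are named, with sgRNA counts where the gene or an sgRNA was called. From each other list up to 2 called genes with the smallest p were named, and 3 others (BNIP3, VPS35, FIG4) after their values were seen. One gene that this rule names is not reported here. SE is the log2 change over the square root of the F statistic. Replicate numbers were not used to pair samples in the main fit. Deviations of same-numbered libraries from their group means had correlations from -0.0081 to 0.0442 over 17547 genes, the highest for mutant day 0 with mutant day 9. These values cannot show whether same-numbered libraries share a culture, since with 2 libraries a group the deviations also hold counting noise.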

Additional observations from a re-analysis of the deposited data

How the results depend on the processing

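The wild-type count of 1 called member gene was 1 to 2 over the fits that left out a library (2, with ATG5 added, without wild-type day 9 replicate 2) and 1 in all others. The count of 2 wild-type member sgRNAs was 1 with only the libraries compared and 1 to 2 with a library left out (1 without either wild-type day 0 library; without wild-type day 9 replicate 1, 40975887 of BECN1 replaced 39535233 of PIK3C3). The mutant gene count of 0 became 1, PIK3C3, with control scaling, DESeq2, only the libraries compared, limma or without the most abundant sgRNA, and 0 to 1 with a library left out. The mutant count of 2 sgRNAs was 5 with DESeq2 and 0 to 4 with a library left out. The counts for the difference between lines and for day 0 were 0 under every alternative run. With DESeq2 the wild-type sgRNA count was 3. The mutant sgRNA count was 3 with control scaling, without 11314116 of ATG7, and 3 with only the libraries compared. The cause of these changes was not tested. With only the libraries compared, the difference between lines has no separate value, since it uses all 8. With the replicate number as a block, 1 wild-type gene, 3 wild-type sgRNAs (40975887 of BECN1 added), 0 mutant genes and 2 mutant sgRNAs were called, and 0 for the difference. The block also called MAP1LC3B in the mutant line (-0.38, edgeR adjusted p = 0.0154).

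Of the values of single genes and sgRNAs under the alternatives, with the counts over the 78 pathway genes, 1788 kept their side of the threshold, 24 passed it, 42 lost it, 4 counts moved and none that was called changed sign. Of uncalled gene values, 24 of 379 in wild-type cells, 27 of 424 in mutant cells and 47 of 532 for the difference changed sign. With 2 replicates a group and 4 residual degrees of freedom, uncalled changes are not shown to be absent. They are bounded by the intervals given, which also draw on the spread pooled over all genes or sgRNAs. The pathway total of 11 calls in wild-type cells was 7 without the most abundant sgRNA.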
